A study of Mus musculus with 12 samples.

Results

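The genes described here are 8 of the 14159 genes in the deposited normalized counts of mouse inguinal white adipose tissue (iWAT), taken by name from a list. They comprise 7 enzymes, which in pathway order are Hmgcs1, Idi1, Fdps, Fdft1, Sqle, Lss and Cyp51, and Srebf2, the gene for SREBP2. The 8 names were listed as synthesis and uptake genes, but none of them encodes a cholesterol uptake protein, so they are called cholesterol synthesis genes here. All 8 were present and all 8 passed the filter on low values, which 13404 genes passed.

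Cholesterol is made in every cell from acetyl-CoA, through mevalonate and isoprenoid diphosphates to squalene, which is closed into lanosterol and trimmed to cholesterol. The genes of this route share a sterol-sensing control. When membranes hold little sterol, the transcription factor precursor SREBP2 is carried from the endoplasmic reticulum to the Golgi, cut, and released to the nucleus, where it acts with the factor NF-Y. In white fat most cholesterol is unesterified and sits in membranes and at the surface of the lipid droplet.

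RNA of whole iWAT was sequenced in 12 libraries, with 3 biological replicates, numbered 0 to 2, in each of 4 groups. In Atf4AKO mice, made with floxed alleles of Atf4 and with Adipoq-Cre, the recombinase deletes Atf4, a transcription factor of the integrated stress response, in cells that express adiponectin. Atf4WT mice were floxed littermates, so both genotypes carry the floxed alleles, and all were on a C57BL/6 background. Each genotype was sampled at room temperature (RT) and after 24 h of cold. The labels of these libraries give no age. The tissue also holds cells that do not express Adipoq-Cre, and in whole tissue fewer cells of a type and less RNA per cell cannot be told apart.

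The libraries held 25719476 to 29105147 reads on the listed genes. Atf4 had 4107 to 5669 normalized counts in Atf4WT and 1470 to 1639 in Atf4AKO libraries at RT, and 5756 to 7644 against 788 to 1578 after cold, without overlap between genotypes. All 7 adipocyte markers were listed and summed to 574768 to 982683 normalized counts per library. Fabp4 alone had 314385 to 667137, so the sum says little of the others. Adipoq had 87909 to 98864 in Atf4WT at RT and 55500 to 69900 after cold. In Atf4AKO it had 84587 to 108458 and 68025 to 85395. The marker sums of other cells varied more. The 5 listed of 8 muscle markers summed to 81505 normalized counts in replicate 2 of Atf4WT at RT, 29061 in replicate 0 of Atf4WT after cold and 3063 in replicate 1 of Atf4AKO after cold, against 72.3 to 845 elsewhere. The 11 listed of 12 B cell markers summed to 4999 to 16394 in Atf4WT after cold and to 173 to 813 in Atf4AKO after cold, and the 12 T cell markers to 1071 to 7758 and 258 to 552. The 7 listed of 8 macrophage markers ranged from 4204 to 31464, the 7 listed of 8 proliferation markers from 132 to 1249, and the 2 listed of 8 epithelial markers from 13.6 to 55.8, while the other 6 epithelial markers are not among the listed genes.

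The promoters are shown first, as a description. Whether their letters bear on the response to cold was not tested. RefSeq promoters of the GRCm38.p6 build, the assembly that mm10 names, were at hand for 5 of the 8 genes, namely Hmgcs1, Idi1, Lss, Cyp51 and Srebf2. The 250 bases before each RefSeq start were searched on both strands. Below are those of Hmgcs1 (chr13:119690101-119690350, plus strand) and Cyp51 (chr5:4104698-4104947, minus strand), the pair that rose most firmly, and of the regulator Srebf2 (chr15:82147019-82147268, plus strand), which did not pass the test. Capitals mark the NF-Y box (CCAAT, or ATTGG on the other strand) and a relaxed sterol regulatory element (TCACNCCAC, or GTGGNGTGA on the other strand).
Hmgcs1: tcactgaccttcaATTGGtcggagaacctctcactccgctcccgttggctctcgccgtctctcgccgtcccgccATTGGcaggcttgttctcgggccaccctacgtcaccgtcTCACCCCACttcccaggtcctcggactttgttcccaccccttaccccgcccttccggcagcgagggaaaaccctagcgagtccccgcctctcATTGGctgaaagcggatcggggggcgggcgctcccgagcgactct
Cyp51: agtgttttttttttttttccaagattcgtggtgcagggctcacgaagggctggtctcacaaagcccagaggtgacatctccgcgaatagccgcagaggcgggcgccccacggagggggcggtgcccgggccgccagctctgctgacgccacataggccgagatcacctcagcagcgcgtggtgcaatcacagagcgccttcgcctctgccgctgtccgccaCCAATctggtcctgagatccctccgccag
Srebf2: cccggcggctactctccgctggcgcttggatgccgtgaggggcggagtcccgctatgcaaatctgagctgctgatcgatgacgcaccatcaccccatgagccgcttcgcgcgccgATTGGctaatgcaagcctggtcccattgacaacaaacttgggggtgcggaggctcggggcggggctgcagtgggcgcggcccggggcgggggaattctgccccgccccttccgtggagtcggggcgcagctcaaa
The NF-Y box was found in 5 of the 5 promoters, and in 33.8% of the 32851 promoters of the same length in the table. Hmgcs1 held 3 copies of it. The relaxed sterol regulatory element was found in 1 of 5, that of Hmgcs1 at -137 to -129 from the start, and in 1.05% of all promoters. The GC box (GGGCGG, which reads CCGCCC on the other strand) was in 5 of 5 and in 32.7% of all. The E-box CACGTG was in 0 of 5 and in 6.02% of all. A core of the element that binds ATF4 (TGATGNAA, which reads TTNCATCA on the other strand) was in 1 of 5, that of Idi1 at -181 to -174, and in 3.45% of all. No motif searched overlapped another in these promoters. A match describes these letters and is not a measured binding site. A promoter without a match may still hold a variant form, as only a base written N was left free.

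In gene positions of mm10 the 8 protein-coding genes lie far apart from each other. Hmgcs1 spans chr13:119690379-119708260 and Idi1 chr13:8885501-8892451. Fdps lies at chr3:89093588-89101959, Fdft1 at chr14:63145150-63179578, Lss at chr10:76531588-76557138 and Cyp51 at chr5:4081145-4104746. Sqle at chr15:59315077-59331192 and Srebf2 at chr15:82147181-82205379 share chromosome 15 with Atf4, at 20.9 Mb and 1.89 Mb from it. These spans are from GENCODE vM21, and those of Cyp51 and Srebf2 begin upstream of the RefSeq starts used above. Part of both printed promoters thus lies within the gene span. The values are sums over the exons of each gene.

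Per kilobase of exon, the levels in Atf4WT at RT were ordered Hmgcs1, Fdft1, Fdps, Cyp51, Srebf2, Idi1, Sqle and Lss. Lengths were the union of all annotated exons of a gene, from 3505 bases for Idi1 to 10787 for Lss. The order depends on these lengths, since Lss, placed last, had a mean of 1025 normalized counts against 580 for Sqle and 513 for Idi1. Hmgcs1 was by far the most abundant at 1490 normalized counts per kb, above the 95.02 to 493 per kb of the other 7, and its lowest library (1440 per kb) was above every library of the others. Fdft1 (407 to 619 per kb) and Fdps (287 to 499) overlapped, as did Sqle (78.7 to 141) and Lss (76.5 to 121). In Atf4WT after cold the order of the means was Hmgcs1, Fdps, Cyp51, Fdft1, Srebf2, Sqle, Idi1 and Lss. There Hmgcs1 was at 3156 per kb, and Cyp51 at 564 per kb stood above Fdft1 at 410, although their library ranges (465 to 714 and 372 to 483) still touched.

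**Figure D1:**
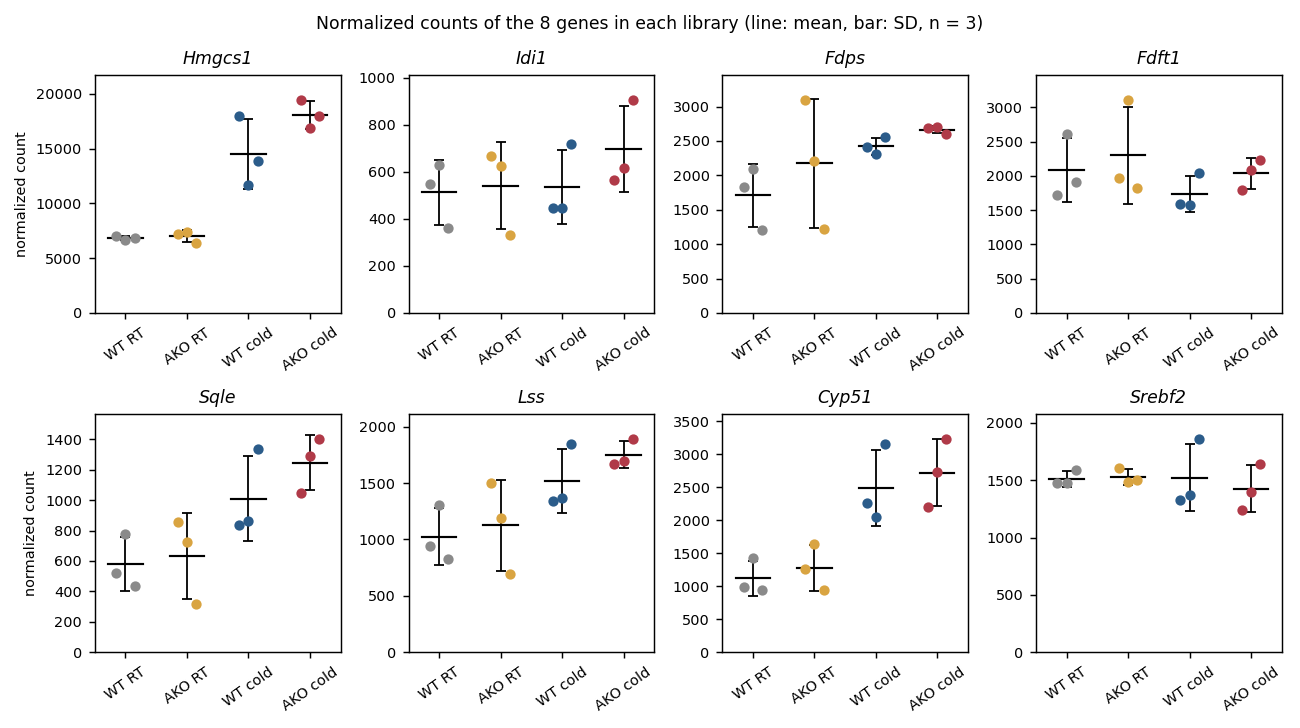
Normalized counts (y axis, from 0 in each panel) of the 8 genes in the 12 libraries, by group on the x axis (WT, Atf4WT; AKO, Atf4AKO), with points for libraries in the order of replicates 0, 1 and 2, lines for means and bars for SD (n = 3). Hmgcs1, Sqle, Lss and Cyp51 were higher in every cold library than in any RT library of the same genotype, while Fdft1, Idi1 and Srebf2 overlapped.

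The first question was how the pathway responded to 24 h of cold. Hmgcs1 and Cyp51 rose in both genotypes, Sqle rose in both with a wider error, and Lss passed in Atf4AKO with a nearly equal value in Atf4WT. Idi1, Fdps and Fdft1, which stand between Hmgcs1 and Sqle in the route, did not pass, and neither did Srebf2. A gene was counted as differentially expressed (DEG) at a fold change over 1.5 with an unadjusted limma p under 0.05. At that threshold 3 of the 8 members were higher after cold in Atf4WT, where 10.9% of all tested genes were, and 4 of 8 in Atf4AKO, where 8.30% were. At a limma adjusted p under 0.05 whatever the fold change, 2 members were higher in Atf4WT (17.0% of all genes) and 3 in Atf4AKO (14.8%). No member was lower after cold by either rule. Without the 3 libraries with most muscle RNA the DEG counts were 2 in Atf4WT and 4 in Atf4AKO. The median log2 fold change of the 8 was 0.56 in Atf4WT and 0.55 in Atf4AKO, beside 0.00 and -0.03 over all tested genes. Of the 7 adipocyte markers 2 were lower after cold in Atf4WT at the DEG threshold (10.3% of all tested genes were) and 0 in Atf4AKO (8.92%). Their medians were -0.25 and -0.11. Lymphocyte markers moved with this comparison in Atf4WT, where 11 of 11 B cell and 11 of 12 T cell markers were higher after cold at the DEG threshold, with median log2 fold changes of 4.55 and 3.29. In Atf4AKO none of these lymphocyte markers was higher and 1 T cell marker was lower, with medians of -0.60 and -0.77. The part of adipocyte and lymphocyte content in the members' values was not tested.

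Hmgcs1 encodes the cytosolic HMG-CoA synthase, which commits acetyl units to the mevalonate route. Its normalized counts were 7045, 6616 and 6880 (6847 ± 216, mean ± SD, n = 3) in Atf4WT at RT and 17954, 11683 and 13856 (14498 ± 3184) after cold. In Atf4AKO they were 7224, 7406 and 6371 at RT and 19426, 16842 and 17991 (18086 ± 1295) after cold. The RT libraries of both genotypes lay within a narrow band, and every cold library was above all of them. The log2 fold change was 1.06 in Atf4WT (SE 0.14, limma adjusted p = 0.000384) and 1.37 in Atf4AKO (SE 0.14, limma adjusted p = 9.73e-05), or 2.08-fold and 2.58-fold.

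Idi1 encodes the isomerase of isopentenyl diphosphate, which readies the isoprene unit for chain building. It had 548, 629 and 361 normalized counts in Atf4WT at RT and 448, 444 and 719 after cold. Atf4AKO libraries had 669, 624 and 330.3 at RT and 567, 617 and 906 after cold. The groups overlapped in both genotypes, and replicate 2 was the lowest library of each RT group and the highest of each cold group. On the log2 scale the change was 0.07 in Atf4WT with a 95% interval of -0.62 to 0.75, and 0.40 in Atf4AKO with an interval of -0.29 to 1.09.

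Fdps encodes the synthase of farnesyl diphosphate, where the routes to cholesterol, to the coenzyme Q tail and to protein prenylation part. It had 1827, 2099 and 1209 normalized counts in Atf4WT at RT and 2408, 2305 and 2550.2 after cold. The Atf4AKO libraries held 3094, 2212 and 1222 at RT and 2687, 2697 and 2603 after cold. All 3 cold libraries of Atf4WT were above its RT libraries, whereas in Atf4AKO 1 RT library was above every cold library. The spread was wide at RT and narrow after cold, with an SD of log2 values of 0.41 against 0.07 in Atf4WT and 0.68 against 0.03 in Atf4AKO. Its log2 fold change was 0.54 in Atf4WT (limma adjusted p = 0.167) and 0.39 in Atf4AKO (limma adjusted p = 0.329).

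Fdft1 encodes squalene synthase, the first enzyme given over to sterols alone. It had 1721, 2617 and 1916 normalized counts in Atf4WT at RT and 1589, 1571 and 2042 after cold. In Atf4AKO it had 1963, 3108 and 1829 at RT and 1791, 2087 and 2239 after cold. The groups overlapped in both genotypes, with replicate 1 the highest of each RT group. On the log2 scale the change was -0.25 in Atf4WT (95% interval -0.71 to 0.21) and -0.14 in Atf4AKO (-0.60 to 0.32).

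Sqle encodes squalene epoxidase, an oxygen-dependent control point of the later pathway. It had 523, 779.5 and 437 normalized counts in Atf4WT at RT and 837, 861 and 1334 after cold. Counts in Atf4AKO were 859, 727 and 317 at RT and 1049, 1294 and 1400.0 after cold. The groups did not overlap in either genotype, although in Atf4WT the gap was small, from 779.5 to 837. This gave a log2 fold change of 0.81 in Atf4WT (SE 0.34, limma adjusted p = 0.0943) and 1.09 in Atf4AKO (SE 0.34, limma adjusted p = 0.0391). In Atf4WT it no longer passed the DEG threshold without replicate 0 or replicate 2 at RT, without replicate 2 after cold, or without the 3 libraries with most muscle RNA, while in Atf4AKO it passed in all 23 alternative fits. Its adjusted p in Atf4AKO was 0.05 or more in 8 of the 23, up to 0.104 without replicate 2 of Atf4AKO at RT.

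Lss encodes lanosterol synthase, which closes the rings. It had 939.9, 1309.8 and 825 normalized counts in Atf4WT at RT and 1345, 1370.0 and 1849 after cold. Atf4AKO libraries had 1497, 1187 and 698 at RT and 1669.9, 1698 and 1888 after cold. All cold libraries were above the RT libraries of the same genotype. Its log2 fold change was 0.58 in Atf4WT (SE 0.25, limma adjusted p = 0.102) and 0.70 in Atf4AKO (SE 0.25, limma adjusted p = 0.0625). Its fold change in Atf4WT was 1.496, next to the threshold of 1.5, so the call in 1 genotype and not in the other is no sign of a difference between them. Without replicate 2 of Atf4AKO at RT its log2 fold change in that genotype was 0.39 and did not pass, nor did it pass without replicate 2 of Atf4AKO after cold.

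Cyp51 encodes the demethylase of lanosterol, the first step after ring closure. It had 982, 1428 and 949 normalized counts in Atf4WT at RT and 2265, 2054 and 3153 after cold. Counts in Atf4AKO were 1265, 1637 and 942 at RT and 2203, 2739 and 3229 after cold. The groups did not overlap in either genotype. This gave a log2 fold change of 1.15 in Atf4WT (SE 0.24, limma adjusted p = 0.00452) and 1.11 in Atf4AKO (SE 0.24, limma adjusted p = 0.00666). Cyp51 and Hmgcs1 passed the DEG threshold in all 23 alternative fits in both genotypes.

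Srebf2 had 1475, 1472 and 1591 normalized counts in Atf4WT at RT and 1329, 1375 and 1857 after cold. In Atf4AKO it had 1610.0, 1486 and 1498 at RT and 1240.4, 1397 and 1644 after cold. The groups overlapped, and over the 12 libraries the highest value was 1.497 times the lowest, against 1.98 to 4.41 times for the 7 enzymes. On the log2 scale the change was -0.01 in Atf4WT (95% interval -0.30 to 0.28) and -0.11 in Atf4AKO (-0.40 to 0.18). These values are of the transcript and say nothing of how much SREBP2 was cut. Counted over the 8 genes, 5 were higher in all cold than in all RT libraries of Atf4WT (23.9% of all tested genes) and 4 in Atf4AKO (21.7%), and none was lower in that way.

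**Figure D2:**
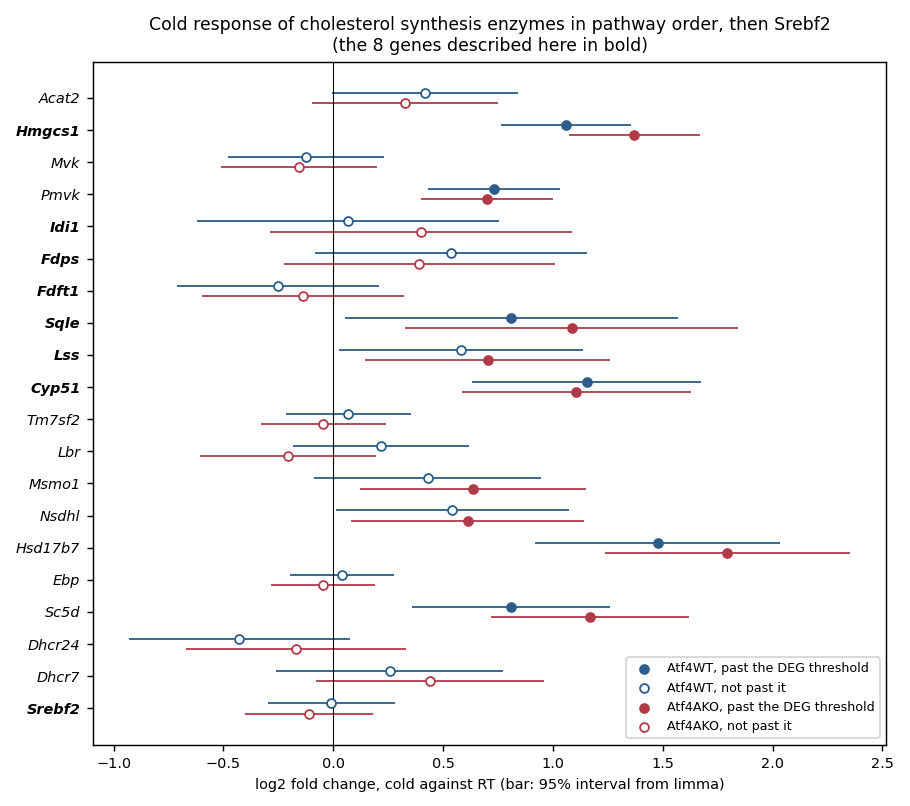
Log2 fold change of cold against RT (x axis) for 19 cholesterol synthesis enzymes in pathway order from the top and for Srebf2, in Atf4WT (blue) and Atf4AKO (red), with 95% intervals from limma and filled points past the DEG threshold. The enzymes past it stand at Hmgcs1 and Pmvk and again from Sqle onwards, and Idi1, Fdps and Fdft1 between them have intervals that span 0.

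The rest of the pathway was read from 12 other synthesis enzymes. At the DEG threshold 3 of the 12 rose after cold in Atf4WT, where 10.9% of all tested genes rose, and none fell. Their median log2 fold change was 0.34. In Atf4AKO 5 of the 12 rose, where 8.30% of all tested genes did, and none fell, with a median of 0.38. The 3 shared names were Pmvk, the phosphomevalonate kinase between Hmgcs1 and Idi1, and Hsd17b7 and Sc5d, which work after Cyp51. Hsd17b7, a sterol ketoreductase, had 206 to 339 normalized counts in Atf4WT at RT and 607 to 950.2 after cold, and its log2 fold change of 1.48 (limma adjusted p = 0.00181) was above those of the 8 members. In Atf4AKO its log2 fold change was 1.79 (limma adjusted p = 0.000757). Sc5d, a sterol desaturase, rose by 0.81 and 1.17 on the log2 scale, and Pmvk by 0.73 and 0.70. Msmo1 and Nsdhl, which act with Hsd17b7 on the methyl groups of sterols, passed in Atf4AKO at 0.64 and 0.61, and had 0.43 and 0.54 in Atf4WT.

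Uptake and sterol sensing were read from lists of their own. Of the 7 sterol-sensing genes reported here 1 rose in each genotype at the DEG threshold and none fell. Over all tested genes 10.9% rose in Atf4WT and 8.30% in Atf4AKO, so 1 of 7 is near the background. This 1 gene was Insig1, which holds SREBP back in the endoplasmic reticulum (log2 fold change 0.69 and 0.86). The list's median was -0.04 in Atf4WT and 0.08 in Atf4AKO. Of the 10 uptake and transport genes reported here, 1 fell in each genotype, where 10.3% of all tested genes fell in Atf4WT and 8.92% in Atf4AKO, a share near the background. The list's medians were 0.01 and 0.12. The gene was Lrp1, a large endocytic receptor that many cell types carry, with log2 fold changes of -0.86 and -0.61.

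None of the 11 efflux, esterification and LXR genes passed the DEG threshold in either genotype, with medians of 0.30 and -0.06. At a limma adjusted p under 0.05 whatever the fold change, 1 of the 11 was higher in each genotype. Over all tested genes 17.0% were in Atf4WT and 14.8% in Atf4AKO. Of the 8 fatty acid synthesis genes that SREBP1 is known to drive, 2 rose in Atf4WT (Thrsp at 1.08 and Me1 at 0.83), where 10.9% of all tested genes rose. In Atf4AKO 1 of the 8 rose (Thrsp at 0.83), where 8.30% of all tested genes did. Me1 did not pass in Atf4AKO, with 34503 to 80480 normalized counts at RT and 56456 to 106739 after cold. The medians of 0.52 and 0.51 stood beside those of the 8 members. Of the 8 genes of the isoprenoid branch, which uses the product of Fdps for other ends, 1 rose in Atf4WT and 2 in Atf4AKO. The shares over all tested genes were the same 10.9% and 8.30%. Pdss1 rose in both genotypes at 1.60 and 1.89, and Nus1 passed in Atf4AKO at 0.60. In Atf4WT Nus1 did not pass, but went from 2152 to 2256 normalized counts at RT to 2742 to 3237 after cold, without overlap. The branch's medians were -0.15 and -0.04. Pdss1 makes the tail of coenzyme Q, and Nus1 belongs to the enzyme that makes dolichol. The lists were described by counts and medians and not tested as sets.

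**Figure D3:**
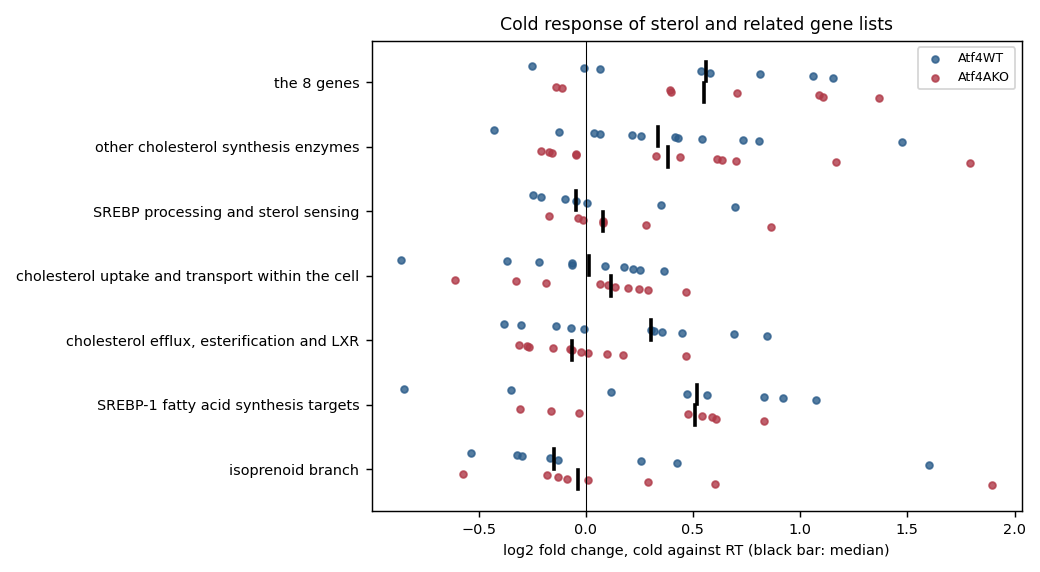
Log2 fold change of cold against RT (x axis) for the tested genes of 7 lists (y axis) in Atf4WT (blue) and Atf4AKO (red), with 1 point per gene and black bars for medians. The medians of the 8 genes (0.56 and 0.55) and of the fatty acid synthesis targets (0.52 and 0.51) are above the others, and single genes such as Pdss1 stand far from the medians of their lists.

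The second question was whether loss of Atf4 in adipocytes changed the level of these genes. No member passed the DEG threshold between genotypes, after cold (6.40% of all tested genes passed) or at RT (0.463%), and edgeR and DESeq2 on the whole reads also called none. At a limma adjusted p under 0.05 the members counted 0 as well, with 0.0298% of all genes after cold and 0.00746% at RT. At an unadjusted p under 0.05 there was 1 member after cold, Hmgcs1, where 11.7% of all tested genes were, and none at RT, where 1.53% were. After cold 7 of the 8 had a positive log2 fold change of Atf4AKO against Atf4WT, and the median was 0.23, beside 0.05 over all tested genes. Hmgcs1 had 0.34 (95% interval 0.04 to 0.64, limma adjusted p = 0.332), with 11683 to 17954 normalized counts in Atf4WT and 16842 to 19426 in Atf4AKO. Replicate 0 of Atf4WT lay within the Atf4AKO range and the other 2 below it. This value depended on single libraries. It was 0.50 without replicate 0 of Atf4WT after cold (limma adjusted p = 0.0289), 0.20 without replicate 1 of that group (limma adjusted p = 0.651) and 0.56 without the 3 libraries with most muscle RNA (limma adjusted p = 0.0494), and it stayed under the DEG fold change in all 23 fits. The count over all genes at an adjusted p under 0.05 moved as well, from 4 to 515 without that replicate 0, to 485 without the muscle-rich libraries and to 590 in DESeq2. Fdps was the 1 member whose groups did not overlap after cold (16.5% of all genes did not, in either direction), with 2305 to 2550.2 against 2603 to 2697, but its log2 difference was 0.14 with an interval of -0.48 to 0.76. The intervals of the other members reached from -0.43 at the lowest to 1.08 at the highest.

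At RT the log2 fold change of Atf4AKO against Atf4WT was 0.02 to 0.28 for the 8 members, all groups overlapped (6.30% of all genes did not), and the median was 0.07. The widest interval was that of Sqle, from -0.71 to 0.81, and the tightest that of Srebf2, from -0.27 to 0.31. The lists of other synthesis enzymes, sterol sensing, uptake, efflux, fatty acid synthesis and isoprenoid genes likewise held no DEG between genotypes at either temperature. The B and T cell marker sums above, which were lower in Atf4AKO after cold, moved with this comparison, and their part in the members' values was not tested.

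The third question was whether the cold response itself differed between genotypes. It was tested as the response in Atf4AKO minus that in Atf4WT, and 0 of the 8 members passed the DEG threshold, where 4.63% of all tested genes did. With limma adjusted p-values under 0.05, 0 members and 0% of all genes passed. At an unadjusted p under 0.05 there were 928 of 13404 genes (6.92%) and none of the members, and DESeq2 called 132 genes and edgeR none at an adjusted p under 0.05, again without a member. In limma that count over all genes was 64 without replicate 0 of Atf4WT after cold and 270 without the 3 muscle-rich libraries, in both cases without a member. The difference was 0.31 for Hmgcs1 (95% interval -0.11 to 0.73), and it ranged from 0.17 without replicate 1 of Atf4WT after cold to 0.48 without replicate 0 of that group, and was 0.52 without the 3 muscle-rich libraries (limma adjusted p = 0.281). Cyp51 was at -0.05 (-0.78 to 0.69) and Sqle at 0.28 (-0.80 to 1.35). Intervals as wide as these do not show that the responses were alike. Cell markers moved with this comparison, since 11 of 11 B cell markers (median -4.90) and 12 of 12 T cell markers (median -3.72) were lower at the DEG threshold, and all 7 proliferation markers had negative values (median -1.27) with none past it. Their part in the members' values was not tested.

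**Figure D4:**
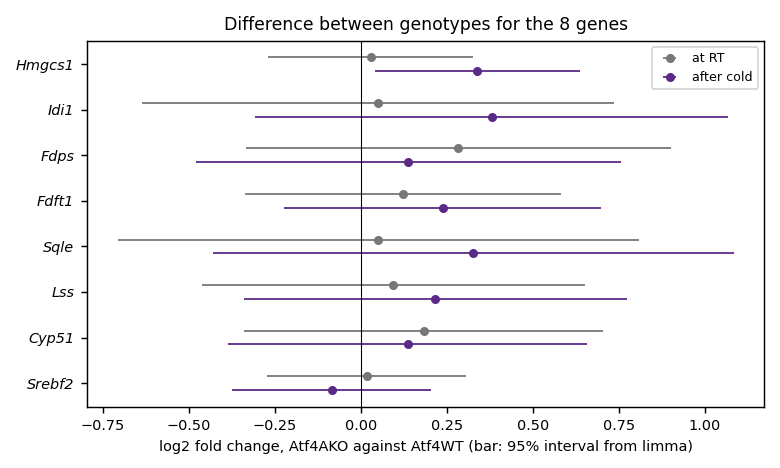
Log2 fold change of Atf4AKO against Atf4WT (x axis) for the 8 genes (y axis) at RT (grey) and after cold (purple), with 95% intervals from limma. All RT intervals and all cold intervals but that of Hmgcs1 (0.04 to 0.64) span 0.

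The members also varied among libraries of the same group, and most of them did so together. In each library the log2 value of a gene was set against its group mean, and the 12 deviations of a gene were correlated with the mean deviation of the other 7 genes. Pearson's r was 0.97 for Sqle, 0.94 for Lss, 0.94 for Idi1, 0.88 for Cyp51, 0.76 for Fdps, 0.65 for Fdft1, 0.40 for Srebf2 and 0.11 for Hmgcs1. These are descriptions over 12 deviations from 4 group means, in libraries that share their size factor between genes. Sqle and Lss were the most alike of the 28 pairs (r = 0.98) and Hmgcs1 and Srebf2 the least (r = -0.20). Srebf2 followed the enzymes in the 6 cold libraries (r = 0.96) and not in the 6 RT libraries (r = -0.05), where it hardly varied. Hmgcs1 had r = 0.62 in the RT libraries, above the 0.56 of Fdft1, and r = -0.16 in the cold libraries. Its own deviations at RT were small. They were 0.04, -0.05 and 0.01 in Atf4WT, beside -0.04, 0.27 and -0.23 for the mean of the 8. In Atf4AKO they were 0.05, 0.08 and -0.13, beside 0.25, 0.22 and -0.47.

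The library that stood out was replicate 2 of Atf4AKO at RT, where the mean deviation of the 8 genes was -0.47. Sqle was 0.88 below its group mean there, Fdps 0.73, Idi1 0.64 and Lss 0.62 below, on the log2 scale, but Srebf2 only 0.03 below. Without that library the log2 fold change of cold in Atf4AKO went from 1.09 to 0.65 for Sqle, from 0.70 to 0.39 for Lss and from 0.39 to 0.03 for Fdps. Replicate 2 of Atf4WT at RT was also low for the mean of the 8 (-0.23), and replicate 2 was the highest library in both cold groups (0.27 and 0.16). T cell marker sums were highest in replicate 2 of each RT group (941 and 1052 against 373 to 512 in the other 4), and so were proliferation marker sums (969.8 and 1249 against 472 to 614). In Atf4WT after cold T cell marker sums were highest in replicate 2 as well (7758), where the mean of the 8 was high. In Atf4AKO after cold the mean of the 8 was also highest in replicate 2. In that group Hmgcs1 was highest in replicate 0, and Fdps was lowest in replicate 2. The T cell sum of replicate 2 in that group was 308 against 552 in replicate 0. Its proliferation sum of 132 was the lowest of the 12 libraries. B cell sums were highest in replicate 2 of Atf4WT at RT (4870) and in replicate 0 of Atf4AKO at RT (1028). The part of these cells in the members' values was not tested.

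**Figure D5:**
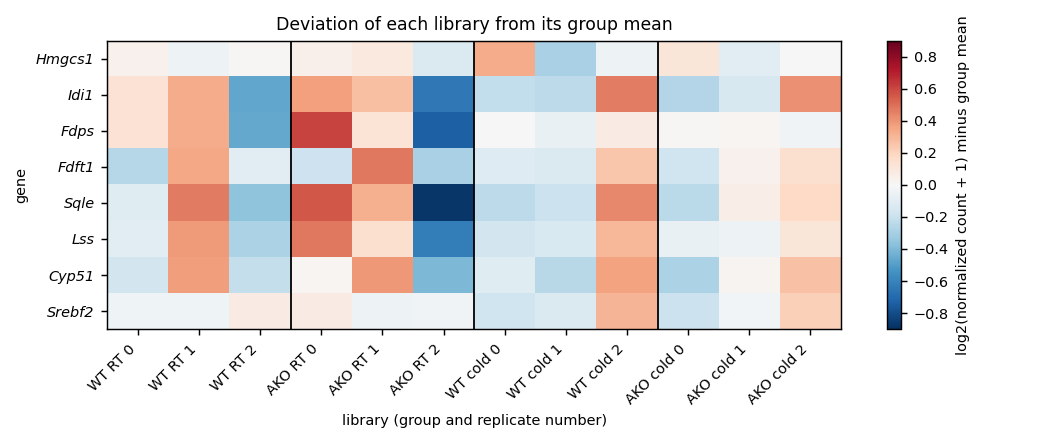
Deviation of each library from its group mean, in log2(normalized count + 1), for the 8 genes (rows) and 12 libraries (columns), with red above and blue below the mean. Replicate 2 of Atf4AKO at RT is low for Sqle (-0.88), Fdps, Idi1 and Lss. With the mean of the other rows Hmgcs1 has r = 0.62 at RT, where its deviations are small, and r = -0.16 after cold.

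Outside the 8 genes, 11834 genes averaging 50 normalized counts or more were ranked by how closely their deviations followed the mean deviation of the 8. The 10 most alike were Eif3h, Kif5b, Dhx32, Gpr107, Aacs, Mrps22, Ank, Stx7, Usp25 and Nsdhl, with r from 0.99 to 0.96, beside a median of 0.10 and a 99th percentile of 0.89 over all those genes. Nsdhl, a sterol enzyme, was the only one of the 10 on the pathway lists used here. Below the first 10, list genes above that 99th percentile were Sc5d (r = 0.945), Acat2 (0.937), Hsd17b7 (0.898), Acss2 (0.896) and Mvk (0.895). Others on the same lists were lower, down to -0.03 for Lbr among the synthesis enzymes and -0.14 for Scd1 among the fatty acid synthesis genes. Aacs makes acetoacetyl-CoA, a substrate of Hmgcs1's enzyme, from acetoacetate. Eif3h, Kif5b and Gpr107 had cold responses of -0.11 to 0.06 on the log2 scale in both genotypes, so for these 3 a like deviation within groups did not go with a like response to cold.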

How the data were processed

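Polyadenylated RNA of whole iWAT was measured in 12 libraries, 3 in each of 4 groups, and all were used. The values the authors deposited are a normalized signal, that is gene reads scaled by a size factor per library (DESeq2). Per the study's methods and the submitters' processing notes, reads were mapped to mm10 with STAR and uniquely mapped reads counted with featureCounts, whose versions and strand setting are not given in the sources used here. Reads shared with near-identical copies are lost by such counting. Division by the value of 1 read gave whole reads for 100% of the values within 0.001 reads. The table lists no gene with 0 reads in any library.

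Groups were compared with limma 3.58.1 under R 4.3.3 (lmFit, eBayes with a trend), fitted to log2(normalized count + 1). The fit held 4 group means, no covariates, and 13404 genes whose mean reached 10. Fold changes are on that scale, and 95% intervals come from the same fit. The smallest library held 25719476 reads, and the spread between replicates sets the precision. A DEG changed more than 1.5-fold at an unadjusted p under 0.05, as the study set it, and adjusted p-values are Benjamini-Hochberg over all tested genes. Alternatives were pseudocounts of 0.5 and 5, no filter and a filter at 50, only the 2 groups compared, rescaling to the same 75th percentile, edgeR 4.0.16 (quasi-likelihood) and DESeq2 1.42.0 on the recovered reads, array weights, a block for the replicate number, adjusted p-values as the threshold, leaving out each library, and, chosen after seeing the data, leaving out the 3 libraries with most muscle RNA. The scripts were tested on simulated data. The members and lists were chosen with earlier results of these data known. A few genes of the pathway lists are not reported here, and list counts and medians are over the rest. The named genes are the 8 members, genes of the pathway lists, and the 10 genes most like the members' mean deviation. Exon lengths and positions came from GENCODE vM21 and promoters from RefSeq (GRCm38.p6). Tables and plots were made in Python 3.11.15 (pandas 2.3.3, matplotlib 3.10.9).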

Additional observations from a re-analysis of the deposited data

How the results depend on the processing

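The number of members past the DEG threshold stayed at 3 in Atf4WT and 4 in Atf4AKO for cold against RT under both pseudocounts, both filters, the fit of only the groups compared, rescaling, edgeR and DESeq2. Array weights gave 3 and 3, and without the 3 libraries with most muscle RNA it was 2 and 4. With adjusted p-values in place of the DEG threshold it was 2 and 3, and over the 23 alternative fits 2 to 5 in Atf4WT (3 in DESeq2, and 5 without replicate 2 of Atf4AKO at RT) and 2 to 4 in Atf4AKO, where Sqle was lost in 8 fits. Between genotypes after cold that count was 0, or 1 (Hmgcs1) without replicate 0 of Atf4WT after cold and without the muscle-rich libraries. Leaving out each library gave 2 to 5 in Atf4WT, with 5 without replicate 1 at RT, where Fdps and Lss joined, and 3 to 5 in Atf4AKO, with Lss lost without replicate 2 of either Atf4AKO group. Between genotypes it gave 0 after cold and 0 to 1 at RT, where Fdps passed without replicate 2 of Atf4AKO, and 0 for the difference of the responses.

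The replicate number as a block gave 3 and 4 members for cold, 0 in the other comparisons, and changed no call. Deviations of libraries with the same number correlated at -0.19 to 0.39 (18 pairs) and those of other libraries at -0.47 to 0.31 (36 pairs), so the numbers were not taken to pair the libraries.

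Values that did not pass the DEG threshold changed sign under some settings, in 46 cases over 18 results, and no called value did. For cold in Atf4WT, leaving out single libraries moved Idi1 between -0.17 and 0.23 and Srebf2 between -0.16 and 0.080. For cold in Atf4AKO it moved Fdft1 between -0.28 and 0.10. After cold it moved the genotype difference of Srebf2 between -0.19 and 0.068. At RT it moved that of Hmgcs1 between -0.013 and 0.10, Idi1 -0.18 and 0.37, Fdps -0.020 and 0.65, Fdft1 -0.11 and 0.30, Sqle -0.23 and 0.49, Lss -0.14 and 0.41, Cyp51 -0.011 and 0.39, and Srebf2 -0.019 and 0.055. It moved the difference of responses of Fdps between -0.51 and 0.16, Fdft1 -0.060 and 0.35, Sqle -0.16 and 0.55, Lss -0.19 and 0.36, Cyp51 -0.25 and 0.15, and Srebf2 -0.21 and 0.051. Array weights gave Idi1 -0.13 and DESeq2 gave Srebf2 0.0082 for cold in Atf4WT. Without the muscle-rich libraries these were -0.054 and 0.12, the RT differences of Idi1, Sqle and Lss were -0.18, -0.13 and -0.047, and the difference of responses of Fdps was 0.074. The cause was not tested.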
